A study of Homo sapiens with 27 samples.

Results

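HBL1 is an established line of activated B-cell-like diffuse large B-cell lymphoma. The data described here are the 6 HBL1 libraries, of 27 in the series, made from cells that carried 1 of 2 short hairpin RNAs (shRNAs) against SIRT3, namely shSIRT3-1 (3 replicates) and shSIRT3-2 (3 replicates). The libraries were chosen by these labels, and of 27115 genes listed, the 11482 with at least 1 CPM (reads scaled to a fixed library total) in at least 3 of the 6 libraries were compared between the shRNAs.

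The study knocked down SIRT3 in HBL1, Karpas422 and OCI-Ly1 cells and measured RNA by sequencing. Every group received an shRNA from a lentiviral vector that also carries a yellow fluorescent protein and a puromycin resistance gene, and RNA was taken on day 8. The control cells received a shCTRL, a scrambled sequence, and are used here as a further group of 3 HBL1 libraries, while the 6 SIRT3 shRNA libraries of each of the other lines serve as a comparison. Nothing in the labels says that replicates came from separate cultures, so p-values measure the spread between these libraries, which may be technical.

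SIRT3 is a deacetylase of the mitochondrial matrix that uses NAD and acts on many metabolic enzymes. An shRNA is cut by Dicer into a short duplex, of which 1 strand guides cleavage of a matching transcript, and a pair of shRNAs against the same gene have different guide strands. Diffuse large B-cell lymphomas arise from mature B cells, which present antigen through MHC class II, carry a B-cell receptor and respond to interferons.

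The 6 libraries had between 44768473 and 53405456 reads on genes. One of them stood apart from its group. On log2(CPM + 0.1), shSIRT3-1 replicate 3 correlated with the other shSIRT3-1 libraries at a Pearson r across genes of 0.934 and 0.944, against 0.995 between those, and between 0.987 and 0.997 among the shSIRT3-2 libraries. Results that rest on it are given with and without it. All 9 B-cell marker genes of the list used passed the filter, and their summed level was 2379 to 2924 CPM with shCTRL, 2067 to 2590 CPM with shSIRT3-1 and 1760 to 1893 CPM with shSIRT3-2. Of 9 T-cell markers, CD3D and TRAT1 were at 0 in all 6 libraries and only CD8A was tested, and of 9 myeloid markers S100A8 and S100A9 were at 0 and only CD68 was tested. CD8A was called higher with shSIRT3-2 by 1.6 and CD68 by 0.81 on the log2 scale (limma, Benjamini-Hochberg adjusted p = 0.0185 and 0.0297), CD8A having passed the filter only through shSIRT3-2, where it was high, and the summed levels of both lists stayed between 0.522 and 3.31 CPM.

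SIRT3 (chr11:215030-236931, hg19, minus strand) was lowered by both shRNAs. It was measured at 13.5, 14.2 and 16.4 CPM with shCTRL, at 2.13, 2.39 and 2.00 CPM with shSIRT3-1 and at 2.84, 3.12 and 3.82 CPM with shSIRT3-2. This left 14.8% of the shCTRL mean with shSIRT3-1 and 22.2% with shSIRT3-2, and the 3 groups did not overlap. The log2 fold change between the SIRT3 shRNAs was 0.56 (standard error 0.17, limma adjusted p = 0.0505) and did not pass the thresholds used for all genes, which were an adjusted p under 0.05 (Benjamini-Hochberg) with more than a 1.5-fold change. Under quantile normalization it passed, at 0.66 (limma adjusted p = 0.0227). In Karpas422 and OCI-Ly1 the same difference was 0.99 and 1.70 and was called in each, and it was smaller in HBL1 than in OCI-Ly1 by 1.14 on the log2 scale (limma interaction term, adjusted p = 0.0278). Against Karpas422 the difference between lines was −0.44 (limma interaction term, adjusted p = 0.325).

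Between the shRNAs 2599 of 11482 genes were called. With shSIRT3-2, 1391 genes were higher (12.1% of those tested) and 1208 were lower (10.5%), and the median log2 difference over all genes was 0.04. The 3 libraries of each group did not overlap for 3682 genes that were higher (32.1%) and 3066 that were lower (26.7%). Of the genes called higher, 94 passed the filter only through the shSIRT3-2 libraries, and of those called lower 123 passed only through shSIRT3-1. Without shSIRT3-1 replicate 3, 1521 genes were called higher (13.5% of 11290) and 1173 lower (10.4%), of which 1171 and 893 had been called in the same direction with it. Without shSIRT3-1 replicate 2 the counts were 1614 higher and 1084 lower. Each of the other 4 libraries lowered both counts when left out. They were 890 higher and 718 lower without shSIRT3-1 replicate 1, 203 and 228 without shSIRT3-2 replicate 1, 420 and 421 without shSIRT3-2 replicate 2, and 446 and 528 without shSIRT3-2 replicate 3.

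**Figure D1:**
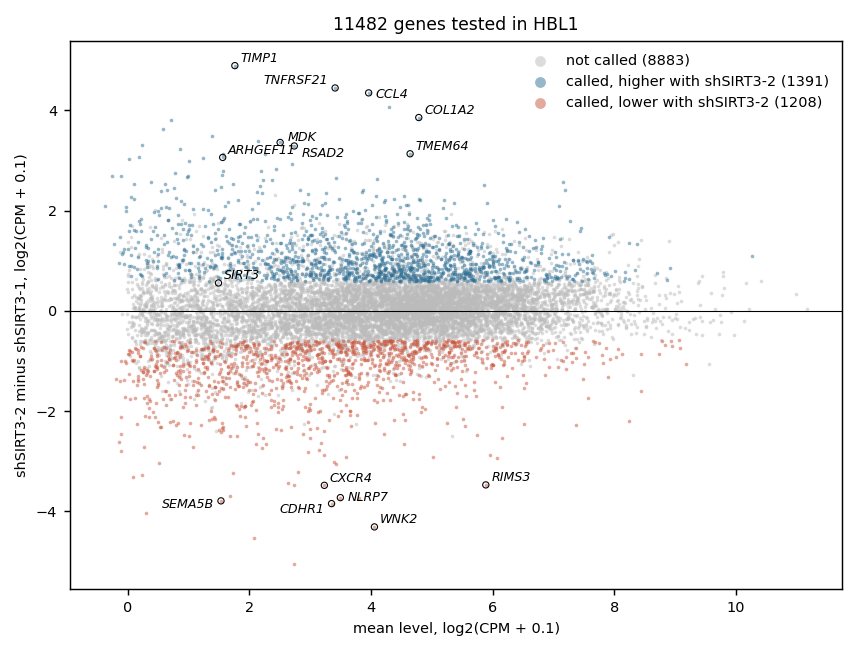
Difference between the SIRT3 shRNAs in HBL1 for 11482 genes, as the mean of the shSIRT3-2 libraries minus that of the shSIRT3-1 libraries on log2(CPM + 0.1), against the mean level over the 6 libraries; each point is a gene. Genes called higher with shSIRT3-2 (1391, blue) and lower (1208, red) lie on both sides over the whole range of levels, and SIRT3 lies at 0.56 among the genes not called (grey).

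The largest differences were taken among called genes with a mean of at least 5 CPM in the higher group and no overlap between the 3 libraries of each group, 12 in each direction. Several of the 12 genes highest with shSIRT3-2 encode secreted proteins. TIMP1, an inhibitor of matrix metalloproteinases (chrX:47441807-47446188), was measured at 0.376, 0.440 and 0.361 CPM with shCTRL, 0.140, 0.131 and 0.054 CPM with shSIRT3-1 and 5.61, 3.77 and 10.1 CPM with shSIRT3-2. It thus lay below the control level with one shRNA and above it with the other, with 29.7-fold more in shSIRT3-2 than in shSIRT3-1 on the log2(CPM + 0.1) scale, which understates the change of low genes. COL1A2, a chain of type I collagen (chr7:94024207-94060539), showed the same order, at 12.6, 14.8 and 15.2 CPM with shCTRL, 4.92, 4.44 and 1.72 CPM with shSIRT3-1 and 55.2, 36.8 and 62.0 CPM with shSIRT3-2. MDK, the growth factor midkine, did so too, at 2.83, 2.50 and 5.77, then 0.924, 0.924 and 0.693, then 9.47, 5.90 and 15.6 CPM. COL1A2 differed between the shRNAs 14.5-fold and MDK 10.3-fold (limma adjusted p = 0.00484 and 0.00467). Of the 12 genes, TIMP1, MDK, SNORD3A and ARHGEF11 passed the filter only through shSIRT3-2, where they were high. Their calls are thus in part set by the filter.

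The chemokines CCL4 (chr17:34431220-34433014) and CCL3 (chr17:34415602-34417515), which attract T cells and monocytes, were high with shSIRT3-2 alone. CCL4 was measured at 1.92, 1.6 and 1.37 CPM with shCTRL, 1.40, 0.863 and 1.56 CPM with shSIRT3-1 and 28.5, 15.7 and 45.0 CPM with shSIRT3-2. CCL3 was measured at 2.49, 2.64 and 1.8 CPM, then 2.18, 1.38 and 2.36 CPM, then 33.5, 19.8 and 58.2 CPM. The shCTRL and shSIRT3-1 libraries overlapped in both genes, and all 3 shSIRT3-2 libraries lay above them. The difference between the SIRT3 shRNAs was 20.4-fold for CCL4 and 16.8-fold for CCL3 (limma adjusted p = 0.0040 and 0.00428). Both genes have near-identical copies in the same cluster, so reads may be split among copies.

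The 12 genes also held TNFRSF21, which encodes a death receptor, TMEM64, a membrane protein gene, ARHGEF11, which encodes a guanine nucleotide exchange factor, and the small nucleolar RNA gene SNORD3A. TNFRSF21 (chr6:47199268-47277641) was measured at 6.52, 5.75 and 4.17 CPM with shCTRL, 1.06, 1.32 and 0.324 CPM with shSIRT3-1 and 26.8, 20.9 and 12.9 CPM with shSIRT3-2. TMEM64 (chr8:91634223-91803860) was measured at 31.2, 29.5 and 28.9 CPM, then 5.64, 6.17 and 3.56 CPM, then 47.2, 46.0 and 40.8 CPM. For TMEM64 most of the 8.79-fold difference between the shRNAs lay below the control, with a log2 fold change of −2.56 for shSIRT3-1 and 0.58 for shSIRT3-2. SNORD3A was the least even, with 3.34, 1.93 and 19.2 CPM in the shSIRT3-2 libraries against 0.327, 0.200 and 0.819 CPM with shSIRT3-1, and it belongs to a family of near-identical copies. Its call was lost without shSIRT3-1 replicate 1 or replicate 2 (limma adjusted p = 0.0796 and 0.0702) and with a pseudocount of 1 (limma adjusted p = 0.0575). The interferon-stimulated genes RSAD2, IFIT2 and IFITM1, also among the 12, are described below with their group.

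**Figure D2:**
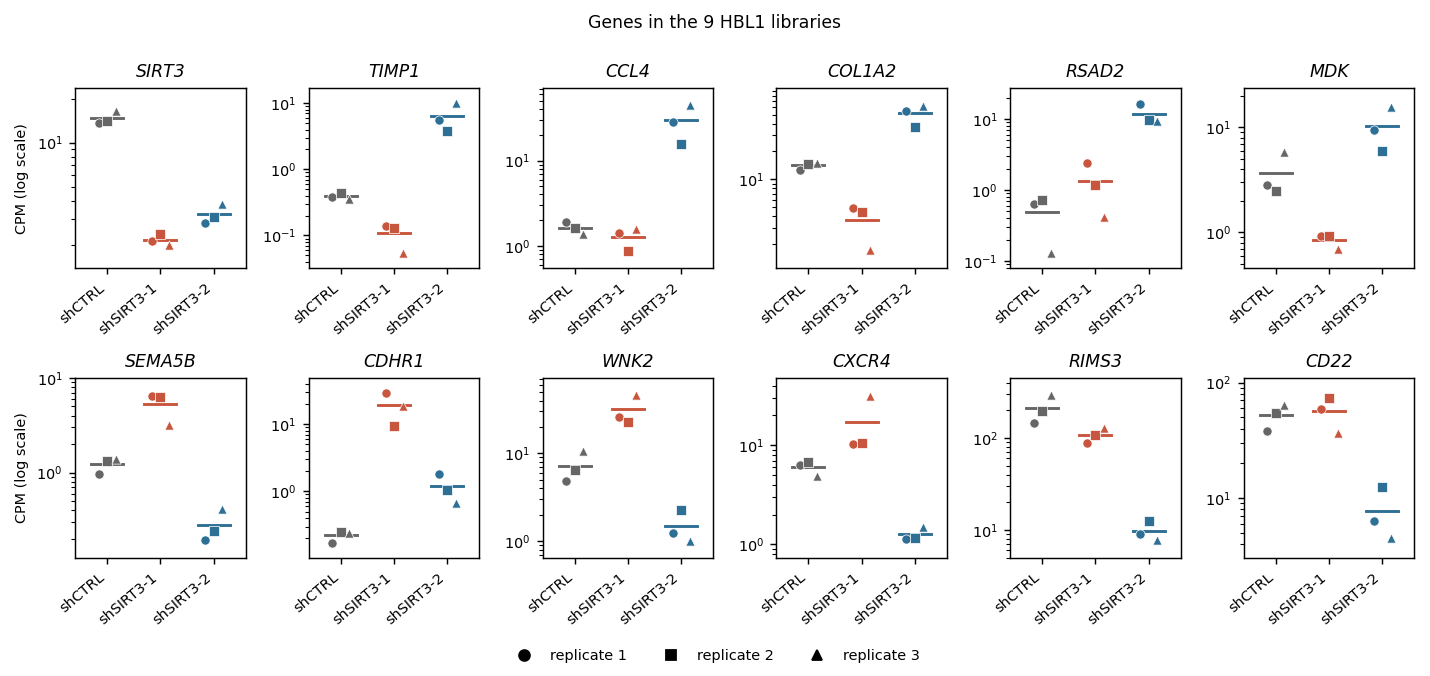
Level of 12 genes in each of the 9 HBL1 libraries, in CPM on a log axis, by shRNA; symbols are replicates and bars are group means. TIMP1, COL1A2 and MDK lie below shCTRL with shSIRT3-1 and above it with shSIRT3-2, SEMA5B and CDHR1 are high with shSIRT3-1, and RIMS3 and CD22 are low with shSIRT3-2.

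Among the 12 genes lowest with shSIRT3-2, the difference mostly lay on the side of shSIRT3-1. CDHR1, a cadherin-related gene of photoreceptors (chr10:85954293-85979377), was measured at 0.173, 0.252 and 0.241 CPM with shCTRL, 29.2, 9.23 and 18.7 CPM with shSIRT3-1 and 1.82, 1.06 and 0.676 CPM with shSIRT3-2. It was called higher than shCTRL with both SIRT3 shRNAs, and between them it was 14.4-fold lower with shSIRT3-2 (limma adjusted p = 0.00618).

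In WNK2, CXCR4 and SEMA5B the shRNAs moved away from shCTRL in opposite directions. WNK2, a kinase of ion transport (chr9:95946404-96082854), was measured at 4.79, 6.40 and 10.5 CPM with shCTRL, 25.9, 22.6 and 46.3 CPM with shSIRT3-1 and 1.25, 2.24 and 1.01 CPM with shSIRT3-2. CXCR4, the receptor of the chemokine CXCL12 (chr2:136871919-136876747), was measured at 6.34, 6.73 and 4.90 CPM, then 10.2, 10.5 and 31.4 CPM, then 1.12, 1.16 and 1.51 CPM. Both genes were called higher with shSIRT3-1 and lower with shSIRT3-2 against shCTRL, as was SEMA5B, which encodes a semaphorin, with log2 fold changes of 1.97 and −1.82. RIMS3, a synaptic vesicle gene (chr1:41086352-41131354), differed from these, at 145, 194 and 291 CPM with shCTRL, 87.1, 109 and 130 CPM with shSIRT3-1 and 9.03, 12.5 and 7.73 CPM with shSIRT3-2. It was below shCTRL with both shRNAs, by 0.91 and 4.38 on the log2 scale.

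The 12 also held FBXW12, RASGRP2, NLRP7, SERPINA9, LINC01991 and NYNRIN, with falls between 10.8-fold and 23.1-fold. In each of these 6 genes shSIRT3-1 replicate 3 was the highest library, for example at 51.2 CPM for RASGRP2, which encodes an activator of the GTPase Rap1, against 13.0 and 14.0 CPM in the other shSIRT3-1 libraries and 1.08 to 2.62 CPM with shSIRT3-2. Without that library the log2 difference of RASGRP2 was −3.10, against −3.74 with it. All 12 rises and the 8 falls that could be tested without it were still called, while FBXW12, SEMA5B and SERPINA9, which are high only with shSIRT3-1, no longer passed the filter. Without shSIRT3-2 replicate 1, the calls of RSAD2, IFITM1, FBXW12, RASGRP2, NLRP7, SERPINA9, LINC01991 and NYNRIN were lost (limma adjusted p between 0.0592 and 0.115). IFITM1, NLRP7 and NYNRIN also lost theirs without shSIRT3-2 replicate 2 (limma adjusted p = 0.101, 0.0724 and 0.0652), and IFITM1, NLRP7 and LINC01991 without replicate 3 (limma adjusted p = 0.0733, 0.0698 and 0.0509). IFITM1 narrowly missed the threshold in the edgeR quasi-likelihood test (adjusted p = 0.0502). TIMP1, MDK, SNORD3A and ARHGEF11 could not be tested when any shSIRT3-2 library was left out, as they passed the filter only through that group.

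Against shCTRL, 1048 genes were called higher (8.83% of 11862) and 2232 lower (18.8%) with shSIRT3-1, and 891 higher (7.51%) and 1895 lower (16.0%) with shSIRT3-2. These comparisons share the shCTRL libraries and are therefore only set side by side. Of the 12 rises between the shRNAs, 7 were called lower with shSIRT3-1 and 8 were called higher with shSIRT3-2. Of the 12 falls, 9 were called higher and 1 lower with shSIRT3-1, and 1 was called higher and 5 lower with shSIRT3-2. The split against shCTRL depended on the scaling. Under quantile normalization, which moved the median over all genes from −0.11 to 0.04 with shSIRT3-1, 1740 genes were called higher and 1632 lower with shSIRT3-1, and 1367 higher and 1347 lower with shSIRT3-2.

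The genes of the interferon response were higher with shSIRT3-2. Interferons activate transcription factors, STAT2 and IRF9 among them, that act at the interferon-stimulated response element of promoters and switch on antiviral genes. Of 44 interferon-stimulated genes tested, 26 were called higher and 0 lower, against 12.1% and 10.5% of all genes, and their median log2 difference was 1.25, against 0.04 over all genes. One of the 44 passed the filter only through shSIRT3-2, and in 34 of them all shSIRT3-2 libraries lay above all shSIRT3-1 libraries, against 32.1% of all genes. At an unadjusted p under 0.05, 35 were higher and 0 lower (limma), and edgeR and DESeq2 called 23 and 31 higher and 0 lower. Against shCTRL, 18 of the 44 were called lower and 1 higher with shSIRT3-1 (median −0.87), and 7 higher and 2 lower with shSIRT3-2 (median 0.41). Over all genes 18.8% were called lower and 8.83% higher with shSIRT3-1, and 7.51% higher and 16.0% lower with shSIRT3-2.

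RSAD2, which encodes the antiviral enzyme viperin (chr2:7005688-7038370), was measured at 0.640, 0.723 and 0.131 CPM with shCTRL, 2.37, 1.17 and 0.423 CPM with shSIRT3-1 and 16.4, 9.59 and 9.48 CPM with shSIRT3-2. IFIT2, an inhibitor of the translation of viral RNA (chr10:91043451-91069028), was measured at 5.35, 4.32 and 1.35 CPM, then 1.28, 0.802 and 0.558 CPM, then 11.7, 6.15 and 7.46 CPM. The RNA sensor gene DDX58, which encodes RIG-I, was measured at 18.4, 16.0 and 10.4 CPM, then 14.6, 11.5 and 10.5 CPM, then 43.5, 33.8 and 29.6 CPM. For these 3 genes the SIRT3 shRNA groups were apart, by 9.79-fold for RSAD2, 8.81-fold for IFIT2 and 2.90-fold for DDX58 (limma adjusted p = 0.0119, 0.00501 and 0.00574). The shCTRL libraries of RSAD2 and DDX58 overlapped with those of shSIRT3-1, whereas IFIT2 was lower with shSIRT3-1 than with shCTRL in each library.

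Other effectors among the called genes were PARP9, with a log2 difference of 1.01 (limma adjusted p = 0.0103), and, chosen after their values were seen, IFI6 and OAS3. IFI6 (chr1:27992575-27998723) was measured at 79.3, 62.1 and 43.9 CPM with shCTRL, 70.6, 51.7 and 17.6 CPM with shSIRT3-1 and 277, 202 and 240 CPM with shSIRT3-2, and OAS3, an enzyme that activates RNase L (chr12:113375856-113414265), at 171, 147 and 61.4, then 77.7, 56.2 and 19.6, then 307, 236 and 176 CPM. OAS3 and IFI6 were thus highest in the shSIRT3-2 libraries, and shSIRT3-1 replicate 3 was the lowest of the 9 libraries for both. STAT2, IRF9 and IRF7, which carry the signal, were not among the calls, with log2 differences of 0.20 for STAT2, 0.24 for IRF9 and 1.04 for IRF7. IFIT, IFITM and OAS genes lie in clusters of similar copies, and reads may be split among them.

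The median of the 44 genes relative to the shCTRL mean was −0.42, −0.63 and −1.67 in shSIRT3-1 replicates 1, 2 and 3 and 0.66, 0.45 and 0.06 in those of shSIRT3-2, on the log2 scale. Replicate 3 was thus the lowest library of each group, as it was with shCTRL (0.27, 0.21 and −0.45). Without shSIRT3-1 replicate 3, 28 of the 44 genes were called higher and 0 lower, with a median of 0.84. The count was 2 without shSIRT3-2 replicate 1, 4 without replicate 2 and 9 without replicate 3.

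The promoters of 3 called genes are printed to show where the interferon-stimulated response element lies. Capitals mark GAAA, any 2 bases and GAAA on either strand, the sequences are those of RefSeq on GRCh38.p14, and each is a stretch of 110 bases, 5′ to 3′ on the strand of the gene, within the 250 bases before its start. The genes were taken as called members with a match and a small adjusted p. IFI6 (chr1:27672261-27672370, minus strand) held 3 matches, and PARP14 (chr3:122680725-122680834) and OAS3 (chr12:112938364-112938473), both on the plus strand, held 1 each.
IFI6: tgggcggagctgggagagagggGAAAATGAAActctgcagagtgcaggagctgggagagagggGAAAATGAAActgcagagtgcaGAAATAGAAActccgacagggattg
PARP14: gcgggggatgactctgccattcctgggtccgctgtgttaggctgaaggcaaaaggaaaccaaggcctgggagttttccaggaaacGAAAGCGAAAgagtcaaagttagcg
OAS3: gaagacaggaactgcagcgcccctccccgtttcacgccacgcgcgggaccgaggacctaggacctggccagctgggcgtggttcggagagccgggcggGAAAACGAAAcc
The letters were found in 12 of 21 called genes of the list that had a promoter sequence and in 6 of 11 that were not called, against 2.49% of 8730 tested genes and 3.07% of 27305 promoters. These shares were 57.1% and 54.5%, so that called and not called members of the list held the letters about as often.

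The interferon-stimulated genes leaned in the direction of HBL1 in Karpas422 and in the opposite direction in OCI-Ly1. Calls in the other lines come from a joint fit of the SIRT3 shRNA libraries of all lines, and those in HBL1 from its 6 libraries. The genes tested differ too, so counts are not directly comparable between lines. With all 27 libraries fitted, 1952 genes were called higher and 1658 lower in HBL1. In Karpas422, 747 genes were called higher (5.86% of 12743) and 609 lower (4.78%) with shSIRT3-2 against shSIRT3-1, and 7 of the 44 interferon-stimulated genes were called higher and 0 lower (limma, with 21 and 0 at an unadjusted p under 0.05), with a median of 0.50. In OCI-Ly1, 259 genes were called higher (2.03%) and 436 lower (3.42%), and 9 of the 44 were called lower and 0 higher (limma, with 23 and 0 at an unadjusted p under 0.05), with a median of −0.62. The difference between shRNAs was larger in HBL1 than in Karpas422 for 9 of the 44 and smaller for 0 (limma interaction term, against 8.33% and 10.9% of all genes, with 5 larger in edgeR and 10 in DESeq2), and larger than in OCI-Ly1 for 36 and smaller for 0 (against 8.36% and 5.27%). PARP9, for example, differed by 1.01 in HBL1, 0.50 in Karpas422 and −1.0 in OCI-Ly1.

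**Figure D3:**
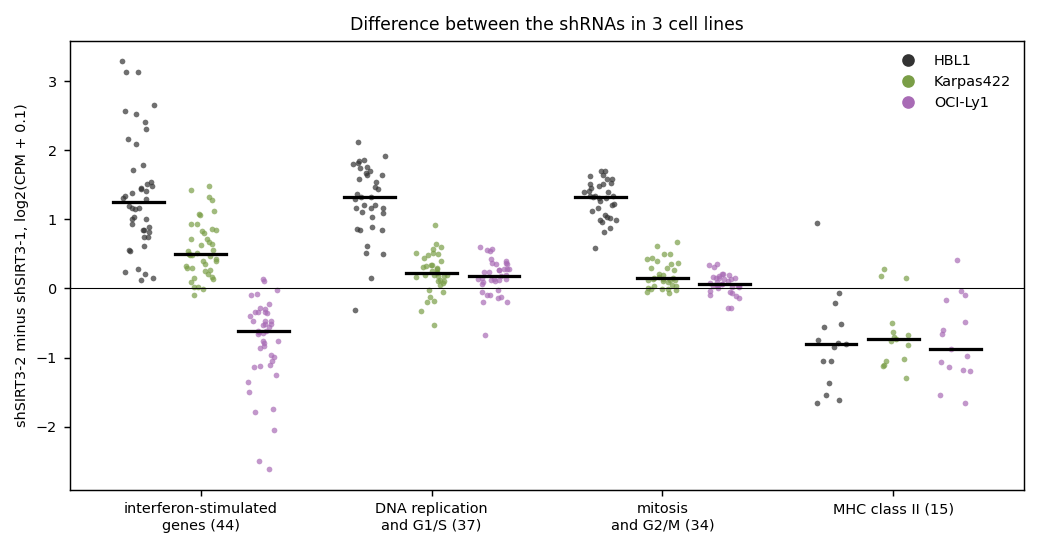
Difference between the SIRT3 shRNAs, as log2(CPM + 0.1) of shSIRT3-2 minus that of shSIRT3-1, in HBL1, Karpas422 and OCI-Ly1; each point is a gene of the list, and bars are medians over the genes tested in HBL1 (their number in brackets). The interferon-stimulated genes have medians of 1.25 in HBL1, 0.50 in Karpas422 and −0.62 in OCI-Ly1, the medians of the replication and mitosis genes are 1.32 and 1.33 in HBL1 and between 0.06 and 0.23 in the other lines, and the MHC class II genes lie mostly below 0 in all 3 lines. Some MHC class II genes were near the floor in OCI-Ly1.

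Genes of DNA replication were also called higher with shSIRT3-2, while few mitosis genes were, and the sizes for both depended on shSIRT3-1 replicate 3. Replication genes encode the helicase and polymerases that copy DNA, and mitosis genes the kinases and motors of cell division. Of 37 replication and G1/S genes, 17 were called higher and 0 lower (median 1.32), and of 34 mitosis and G2/M genes 3 were called higher and 0 lower (median 1.33), against 12.1% and 10.5% of all genes. In 33 genes of each list the groups did not overlap, all higher with shSIRT3-2, against 32.1% of all genes. At an unadjusted p under 0.05 the counts were 31 and 22 higher and 0 lower (limma). The edgeR test called 13 and 3 higher, DESeq2 called 30 and 17, and both called 0 lower. Without shSIRT3-1 replicate 3 the medians were 0.78 and 0.69, and the calls were 29 higher and 1 lower (E2F2) for replication and 22 higher and 0 lower for mitosis. With the replicate number as a block, where 1679 of all genes were called higher (14.6%) and 1576 lower (13.7%), 27 replication and 9 mitosis genes were called higher.

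The cyclin gene CCNE2 (chr8:95891998-95908906) was measured at 4.22, 4.51 and 4.48 CPM with shCTRL, 3.73, 4.19 and 2.32 CPM with shSIRT3-1 and 15.1, 14.8 and 14.4 CPM with shSIRT3-2. GINS1, a subunit of the replicative helicase (chr20:25371644-25433336), was measured at 18.9, 17.0 and 10.5 CPM, then 14.9, 16.8 and 5.90 CPM, then 43.0, 42.8 and 38.7 CPM. In both genes the shSIRT3-2 libraries stood above all others, and both were called higher than shCTRL with shSIRT3-2 and not called with shSIRT3-1. In the mitotic genes FOXM1 and CDK1 the shSIRT3-2 libraries also stood above all others, for FOXM1 narrowly. Of the mitosis genes, however, 0 were called higher than shCTRL with shSIRT3-2. FOXM1, the transcription factor of G2/M genes (chr12:2966846-2986340), was measured at 73.8, 67.5 and 43.3 CPM with shCTRL, 36.4, 37.6 and 12 CPM with shSIRT3-1 and 75.2, 75.4 and 86.9 CPM with shSIRT3-2, and CDK1, the mitotic kinase (chr10:62538089-62554610), at 76.5, 75.7 and 40.8, then 43.9, 47.2 and 13.0, then 104, 98.8 and 89.7 CPM.

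FOXM1 and CDK1 were lowest in shSIRT3-1 replicate 3, and the log2 difference between the shRNAs was 1.63 for FOXM1 and 1.69 for CDK1 with that library (limma adjusted p = 0.0361 and 0.0421) and 1.09 and 1.10 without it. Over the 34 mitosis genes the library medians relative to the shCTRL mean were −0.67, −0.53 and −2.52 with shSIRT3-1 and 0.04, 0.12 and 0.14 with shSIRT3-2, and those of shCTRL were 0.34, 0.39 and −0.71. Over the 37 replication genes they were −0.47, −0.27 and −1.92 with shSIRT3-1 and 0.52, 0.53 and 0.34 with shSIRT3-2. Against shCTRL, 10 replication and 13 mitosis genes were called lower with shSIRT3-1, whereas with shSIRT3-2 4 replication genes were called higher and 1 mitosis gene lower. Over all genes 18.8% were called lower with shSIRT3-1, and 7.51% higher and 16.0% lower with shSIRT3-2. Fewer dividing cells and less of these RNAs per cell cannot be told apart in these samples.

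The counts for both lists depended on single libraries. Of the replication genes 7 were called higher without shSIRT3-1 replicate 1, 27 without shSIRT3-1 replicate 2, and 1 without any of the shSIRT3-2 libraries in turn. Of the mitosis genes 0 were called higher without shSIRT3-1 replicate 1 or any of the shSIRT3-2 libraries, and 9 without shSIRT3-1 replicate 2. In Karpas422 0 replication genes and 1 mitosis gene were called between the shRNAs, and in OCI-Ly1 0 of either (limma, with 3 and 1 genes in Karpas422 and 2 and 0 in OCI-Ly1 at an unadjusted p under 0.05), and the difference was larger in HBL1 than in Karpas422 for 17 of the 37 replication genes in limma, 4 in edgeR and 11 in DESeq2, and than in OCI-Ly1 for 12 in limma. With the block, 1674 of all genes were called higher and 1210 lower in HBL1 relative to OCI-Ly1, against 1065 and 672 without it.

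Many replication genes carry an E2F site in their promoter. MCM6, a helicase subunit chosen after its values were seen (chr2:136597196-136634013, hg19), was measured at 120, 108 and 71.2 CPM with shCTRL, 34.8, 44.4 and 15 CPM with shSIRT3-1 and 83.1, 88.5 and 77.5 CPM with shSIRT3-2, so that the control libraries overlapped with shSIRT3-2 and lay above shSIRT3-1. Its promoter (chr2:135876507-135876616, GRCh38.p14, minus strand) holds the same 12 bases in 2 places, each a match to TTTNNCGC on both strands, shown in capitals.
MCM6: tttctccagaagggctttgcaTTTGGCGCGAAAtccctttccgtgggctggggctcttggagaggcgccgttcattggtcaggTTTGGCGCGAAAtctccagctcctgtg
TTTNNCGC lay within 250 bases before the start of 5 of 14 called genes of the list and 10 of 18 not called, against 9.43% of the tested genes and 5.93% of all promoters.

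The replication-dependent histone genes went the other way. These genes are transcribed in S phase and their usual mRNA has no poly(A) tail. Only 8 of 61 listed genes passed the filter, 3 of them only through shSIRT3-1. Of the 8, 7 were called lower with shSIRT3-2 and 0 higher (limma, median −2.29), against 10.5% and 12.1% of all genes. All 8 were lower in edgeR, in DESeq2 and at an unadjusted p under 0.05. HIST2H2BE was measured at 3.34, 2.42 and 3.26 CPM with shCTRL, 17.9, 12.2 and 33.7 CPM with shSIRT3-1 and 2.55, 2.58 and 2.37 CPM with shSIRT3-2, and HIST1H2BK at 10.9, 9.04 and 6.11, then 27.1, 20.9 and 34.5, then 5.87, 5.94 and 5.22 CPM. These 2 genes were high with shSIRT3-1, most of all in replicate 3, and 5 of the 8 were called higher than shCTRL with shSIRT3-1, against 8.83% of all genes. Without shSIRT3-1 replicate 3, 5 genes passed the filter and 4 were called lower. The count was 4 or 3 without shSIRT3-1 replicate 1 or any of the shSIRT3-2 libraries. Histone genes have near-identical copies, and the counts of single members are uncertain.

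MHC class II genes were lower with shSIRT3-2, as some of them were in the other lines. CIITA, the activator that switches on MHC class II promoters (chr16:10960079-11036878), was measured at 35.1, 40.3 and 55.1 CPM with shCTRL, 51.4, 50.5 and 46.9 CPM with shSIRT3-1 and 18.8, 21.4 and 17.6 CPM with shSIRT3-2. HLA-DMB, a subunit of the peptide exchange factor HLA-DM (chr6:32902406-32908805), was measured at 23.4, 22.8 and 38.7 CPM, then 43.4, 40.6 and 41.0 CPM, then 12.6, 14.8 and 12.2 CPM. The invariant chain CD74, chosen after its values were seen (chr5:149781200-149792532), was measured at 500, 513 and 589 CPM, then 773, 799 and 766 CPM, then 411, 401 and 320 CPM. All 3 genes were lowest with shSIRT3-2 without overlap, CD74 and HLA-DMB were highest with shSIRT3-1, and for CIITA the shCTRL and shSIRT3-1 libraries overlapped. CIITA was 2.58-fold, HLA-DMB 3.15-fold and HLA-DPB1 2.92-fold lower with shSIRT3-2 than with shSIRT3-1 (limma adjusted p = 0.00302, 0.0027 and 0.0040).

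Of 15 MHC class II genes tested, 10 were called lower and 1 higher with shSIRT3-2 (median −0.81), against 10.5% and 12.1% of all genes. The gene called higher was RFXAP, a subunit of the RFX factor, at 8.25, 10.3 and 7.28 CPM with shSIRT3-1 and 16.4, 16.4 and 16.9 CPM with shSIRT3-2, while its partners RFX5 and RFXANK had log2 differences of −0.21 and −0.07. Without shSIRT3-1 replicate 3, 12 genes were called lower and 1 higher. Against shCTRL, 4 of 16 genes were called higher and 1 lower with shSIRT3-1, and 7 lower with shSIRT3-2, where the shares of all genes were 8.83%, 18.8% and 16.0%. In Karpas422 and OCI-Ly1, 5 of 16 genes were called lower in each, and 1 gene passed the test of a difference between HBL1 and Karpas422 and 0 that between HBL1 and OCI-Ly1 (limma interaction term, with 3 genes at an unadjusted p under 0.05 in each). HLA-DRB1 and HLA-DRB5 are near-identical and vary between people, so their counts are uncertain.

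The Y box of MHC class II promoters, printed here for HLA-DMA, is bound by the factor NF-Y. HLA-DMA, the partner of HLA-DMB, was chosen after its values were seen and was lower with shSIRT3-2 by 0.74 on the log2 scale (limma adjusted p = 0.00506). The stretch lies at chr6:32953157-32953266 on the minus strand of GRCh38.p14, with CTGATTGG in capitals.
HLA-DMA: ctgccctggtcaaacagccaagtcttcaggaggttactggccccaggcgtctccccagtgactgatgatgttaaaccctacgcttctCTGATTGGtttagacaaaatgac
CTGATTGG lay in the 250 bases before the start of 4 of 8 called genes of the list and 1 of 5 not called, on either strand, against 5.53% of the tested genes and 3.99% of all promoters.

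**Figure D4:**
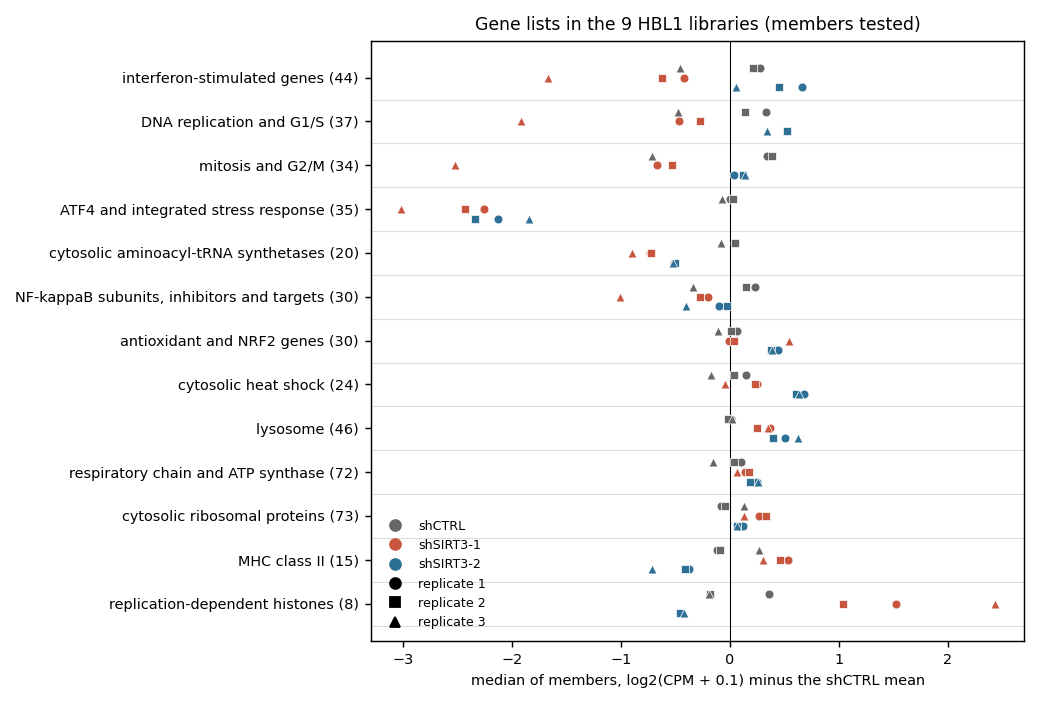
Median level of each gene list in the 9 HBL1 libraries, on log2(CPM + 0.1) relative to the shCTRL mean of each gene; colours are shRNAs, symbols are replicates, and brackets give the genes tested. Replicate 3 of shSIRT3-1 (red triangle) lies lowest in the mitosis list at −2.52 and in the replication list at −1.92, the ATF4 genes lie far below 0 with both shRNAs, and the respiratory chain and ribosomal protein genes stay near 0.

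The genes under ATF4, the transcription factor of the amino acid and integrated stress response, were low with both shRNAs, and some were lower with shSIRT3-1. Of 35 such genes, 34 were called lower than shCTRL with shSIRT3-1 and 31 with shSIRT3-2, with medians of −2.41 and −2.10. Over all genes these shares were 18.8% and 16.0%. Between the SIRT3 shRNAs 12 were called higher and 0 lower with shSIRT3-2 (median 0.55), against 12.1% and 10.5% of all genes. The edgeR test gave 11 and 0, and at an unadjusted p under 0.05 limma gave 20 higher and 1 lower. The library medians relative to the shCTRL mean overlapped, from −3.02 to −2.26 with shSIRT3-1 and from −2.34 to −1.85 with shSIRT3-2. In Karpas422, 3 of the 35 were called higher and 7 lower with shSIRT3-2 (limma, median −0.38, against 5.86% and 4.78% of all genes). In OCI-Ly1 1 was called higher and 0 lower (median −0.04, against 2.03% and 3.42%). The difference was larger in HBL1 than in Karpas422 for 16 and smaller for 0 (limma interaction term, against 8.33% and 10.9%). The edgeR and DESeq2 tests gave 12 and 17 larger. Of the 35 genes, 2 had passed the filter in HBL1 only through shSIRT3-2. SLC7A11, the cystine importer (chr4:139085251-139163503) and one of these 2, was measured at 14.2, 16.0 and 9.68 CPM with shCTRL, 0.709, 0.793 and 0.441 CPM with shSIRT3-1 and 2.89, 2.13 and 3.05 CPM with shSIRT3-2. SLC1A5, a glutamine importer (chr19:47278140-47291851), was measured at 221, 208 and 199 CPM, then 51.0, 59.0 and 34.7 CPM, then 108, 101 and 115 CPM. The 3 groups did not overlap for either importer, and the difference between the SIRT3 shRNAs was 3.77-fold for SLC7A11 and 2.28-fold for SLC1A5 (limma adjusted p = 0.00674 and 0.0110). The importer SLC7A1 and the transcription factor ATF3 were also called, with log2 differences of 1.18 and 1.47.

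ATF4 itself, and PSAT1 and DDIT3, which the study also names, were not called between the shRNAs. ATF4 (chr22:39915700-39918688) was measured at 280, 289 and 342 CPM with shCTRL, 117, 116 and 138 CPM with shSIRT3-1 and 140, 127 and 158 CPM with shSIRT3-2. PSAT1, an enzyme of serine synthesis (chr9:80912041-80945009), was measured at 368, 370 and 384 CPM, then 48.4, 51.5 and 18.8 CPM, then 53.7, 57.2 and 55.8 CPM. DDIT3, which encodes CHOP (chr12:57910371-57915520), was measured at 42.4, 43.2 and 30.7 CPM, then 8.66, 7.05 and 13.9 CPM, then 8.73, 7.49 and 10.6 CPM. The SIRT3 shRNA groups overlapped for ATF4 and DDIT3, and the log2 differences between them were 0.20, 0.62 and −0.10 for ATF4, PSAT1 and DDIT3 (standard errors 0.12, 0.38 and 0.27, limma adjusted p = 0.241, 0.234 and 0.793). For DDIT3 the sign turned to 0.18 without shSIRT3-1 replicate 3 and to 0.02 without shSIRT3-2 replicate 2. The number of ATF4 genes called higher between the shRNAs was 13 without shSIRT3-1 replicate 3, with 1 lower, but 6 without shSIRT3-1 replicate 1 and 0, 3 and 1 without shSIRT3-2 replicates 1, 2 and 3.

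Of the 20 cytosolic aminoacyl-tRNA synthetase genes, whose enzymes charge tRNAs, 0 were called in either direction between the shRNAs (limma, median 0.27), against 12.1% and 10.5% of all genes. At an unadjusted p under 0.05, 8 were higher and 2 lower, and edgeR and DESeq2 called 1 lower. Against shCTRL 11 were called lower with shSIRT3-1 and 9 lower and 1 higher with shSIRT3-2, where the shares of all genes were 18.8%, 16.0% and 7.51%. HIF1A, the hypoxia factor that the study also follows (chr14:62162231-62214977), was measured at 48.2, 47.6 and 40.2 CPM with shCTRL, 55.5, 52.4 and 51.9 CPM with shSIRT3-1 and 30.8, 28.7 and 27.2 CPM with shSIRT3-2. It was lower with shSIRT3-2 by 0.88 (standard error 0.09, limma adjusted p = 0.0040), and the fall was called in Karpas422 and OCI-Ly1 too, at −1.24 and −0.69, without a difference between lines that passed (limma interaction term, adjusted p = 0.132 and 0.440). Of 32 genes of glycolysis and hypoxia, 3 were called higher and 2 lower (median 0.33, against 12.1% and 10.5% of all genes).

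NF-kappaB is active in HBL1, and its target genes did not move one way. Of 30 genes tested, 6 were called higher with shSIRT3-2 and 3 lower (median 0.49), against 12.1% and 10.5% of all genes. TNF (chr6:31543342-31546113) was measured at 8.80, 6.08 and 6.33 CPM with shCTRL, 14.2, 10.9 and 16.7 CPM with shSIRT3-1 and 44.6, 34.4 and 41.2 CPM with shSIRT3-2, and its neighbour LTB, lymphotoxin beta (chr6:31548302-31550299), at 1.64, 2.00 and 2.6, then 6.72, 9.59 and 8.43, then 2.48, 2.48 and 1.6 CPM. TNF was highest with shSIRT3-2 and LTB with shSIRT3-1, with log2 differences of 1.53 and −1.88 between the shRNAs (limma adjusted p = 0.00551 and 0.00564). In Karpas422 and OCI-Ly1 TNF was lower with shSIRT3-2, by 3.21 and 2.22. Chosen after its values were seen, NFKBIA, which encodes the inhibitor of NF-kappaB, was called higher by 1.03, while the subunit genes REL and RELA had differences of 0.34 and 0.28.

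Cytokines, chemokines and their receptors did not move one way. Of 29 such genes, 5 were called higher and 7 lower with shSIRT3-2 (median 0.07), against 12.1% and 10.5% of all genes. The genes called lower were CXCR4, GPR183, TNFRSF13C and IL16 and, chosen after their values were seen, CXCR5, S1PR1 and IL10RA, with log2 differences between −0.95 and −3.48. Those called higher were CCL3, CCL4, IL2RB, TNFSF10 and TNFSF13B, the last 3 chosen after their values were seen. TNFRSF13C, the receptor of the survival factor BAFF (chr22:42318036-42322810), was measured at 9.18, 9.78 and 14.7 CPM with shCTRL, 20.5, 18.2 and 27.6 CPM with shSIRT3-1 and 4.77, 6.28 and 4.41 CPM with shSIRT3-2. GPR183, an oxysterol receptor that guides B cells (chr13:99946793-99959653), was measured at 0.731, 0.676 and 0.733 CPM, then 6.32, 4.62 and 6.74 CPM, then 1.31, 1.49 and 1.70 CPM. TNFRSF13C lay above shCTRL with shSIRT3-1 and below it with shSIRT3-2, whereas GPR183 lay above shCTRL with both. TNFSF13B, which encodes BAFF, was higher with shSIRT3-2 than with shSIRT3-1 by 2.52 on the log2 scale (limma adjusted p = 0.00856).

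Of 28 genes of B-cell receptor signalling, 4 were called lower with shSIRT3-2 and 0 higher (limma, median −0.01, against 10.5% and 12.1% of all genes), with 6 lower and 3 higher at an unadjusted p under 0.05 and 4 and 5 lower in edgeR and DESeq2. CD22, an inhibitory co-receptor (chr19:35810164-35838264), was measured at 38.4, 54 and 63.9 CPM with shCTRL, 59.4, 73.7 and 36.9 CPM with shSIRT3-1 and 6.29, 12.6 and 4.55 CPM with shSIRT3-2, and was 7.56-fold lower with shSIRT3-2 than with shSIRT3-1 (limma adjusted p = 0.00765). CD79B, a signalling chain of the receptor, had a log2 difference of −0.60, the kinase gene BLK −0.83 and the phospholipase gene PLCG2 −0.74. The call of CD22 was lost without shSIRT3-2 replicate 1 (limma adjusted p = 0.0503), and 6, 0, 1 and 3 genes of this list were called lower without shSIRT3-1 replicate 3 and shSIRT3-2 replicates 1, 2 and 3, respectively. BCL6 and BACH2, transcription factors of germinal centre B cells, were below shCTRL with both shRNAs and lower with shSIRT3-2, for BCL6 at 180, 175 and 153 CPM with shCTRL, 114, 125 and 123 CPM with shSIRT3-1 and 69.6, 72.0 and 61.7 CPM with shSIRT3-2. The anti-apoptotic gene BCL2 was measured at 269, 292 and 292 CPM, then 238, 196 and 220 CPM, then 112, 109 and 122 CPM, and fell between the shRNAs by 0.93 on the log2 scale (limma adjusted p = 0.00511).

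Heat shock, antioxidant and lysosomal genes had medians between 0.26 and 0.46, and their counts stand against 12.1% of all genes called higher and 10.5% lower. Of 24 cytosolic heat shock genes 8 were called higher with shSIRT3-2 and 0 lower (limma, median 0.44, with 15 higher and 1 lower at an unadjusted p under 0.05), 7 in edgeR, 9 in DESeq2 and 5 under quantile normalization, among them HSP90AA1 at 317, 330 and 291 CPM with shSIRT3-1 and 540, 531 and 505 CPM with shSIRT3-2. Of 30 antioxidant genes 5 were called higher and 1 lower (median 0.46), and 14 higher and 1 lower without shSIRT3-1 replicate 3 and 9 higher and 1 lower with the replicate block. TXN, which encodes thioredoxin, was measured at 16.1, 17.1 and 23.6 CPM with shSIRT3-1 and 44.8, 41.6 and 50.1 CPM with shSIRT3-2. Both genes were apart between the shRNAs, with shCTRL at 297 to 382 CPM for HSP90AA1 and 11.7 to 18.4 CPM for TXN. Of 46 lysosomal genes 10 were called higher and 3 lower (median 0.26), with the sialidase gene NEU1 at 1.21 and the proton pump subunit ATP6V0B at −0.81. Called heat shock genes numbered 3 without shSIRT3-1 replicate 1 and 0, 3 and 4 without shSIRT3-2 replicates 1, 2 and 3, and called lysosomal genes 1, 3 and 3 higher without the latter, while antioxidant genes called higher numbered 1, 3 and 3.

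Among lists of the metabolic machinery close to SIRT3, that of the respiratory chain held 0 calls in limma, while genes of the TCA cycle were called in both directions. Of 72 genes of the respiratory chain and ATP synthase, 0 were called in either direction (limma, median 0.09), 14 were higher and 3 lower at an unadjusted p under 0.05, and edgeR and DESeq2 called 1 lower. The shSIRT3-2 libraries lay without overlap above shSIRT3-1 for 26 of these genes and below it for 8, against 32.1% and 26.7% of all genes. Of 32 genes of the TCA cycle and glutamine entry, 5 were called higher and 1 lower (median 0.24, against 12.1% and 10.5% of all genes), and 3 and 1 under quantile normalization. The 5 included FH, fumarase, at a log2 difference of 0.84, and GLUD2 at 0.72, a gene nearly identical to GLUD1, and the gene called lower was GPT2, an alanine aminotransferase, at −1.02. Called higher were 2 of these genes without shSIRT3-1 replicate 1 or replicate 3, 8 without shSIRT3-1 replicate 2, and 0 without any of the shSIRT3-2 libraries in turn. Of 73 cytosolic ribosomal protein genes 0 were called higher and 1 lower (RPS23, −0.61), and of 74 mitochondrial ribosomal protein genes 5 were called higher and 1 lower. These counts, and that of the sirtuins, also stand against 12.1% and 10.5% of all genes. Of 7 sirtuin genes 1 was called, SIRT4, which was measured at 1.09, 1.27 and 1.21 CPM with shCTRL, 1.12, 1.32 and 1.23 CPM with shSIRT3-1 and 0.449, 0.441 and 0.328 CPM with shSIRT3-2, and which passed the filter only through shSIRT3-1.

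The 24 genes with the largest differences were chosen for their values in HBL1, so that a larger difference there than in another line is in part set by the choice, and their values in the other lines are given as a description. In Karpas422, 2 of the 12 rises were called higher with shSIRT3-2, TNFRSF21 by 4.49 and TMEM64 by 2.25 on the log2 scale, and 2 were called lower, CCL3 by 3.22 and ARHGEF11 by 1.73. In OCI-Ly1, TMEM64 was called higher by 1.28, and CCL3 had a difference of −0.02. Of the 12 falls, 0 were called in Karpas422 (limma), and WNK2 was called lower in OCI-Ly1 by 1.17. Among those not called, RSAD2 and IFIT2 had differences of 1.12 and 1.06 in Karpas422, NLRP7 had −1.87 in OCI-Ly1, and LINC01991 had −1.10 in Karpas422 and −0.86 in OCI-Ly1. In OCI-Ly1 the groups did not overlap for TNFRSF21, with means of 0.259 CPM with shSIRT3-1 and 1.61 CPM with shSIRT3-2. Nor did they for NYNRIN, with means of 25.0 and 6.88 CPM, so that both leaned as in HBL1. CXCR4 leaned the other way there, with means of 197 and 333 CPM and overlapping libraries. Several of the 24 genes were hardly detected elsewhere, with 10 under 1 CPM in every SIRT3 shRNA library of Karpas422 and 12 in those of OCI-Ly1.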

How the data were processed

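RNA sequencing of 6 HBL1 libraries with shSIRT3-1 or shSIRT3-2 was analysed, with 3 HBL1 shCTRL libraries and 18 libraries of Karpas422 and OCI-Ly1 for comparison, grouped by the sample labels. The authors primed first strands with random oligos, sequenced paired ends, aligned reads to hg19 with STAR and counted RefSeq genes with Rsubread. The deposited values are named FPKM, but they are CPM, as the values of a library are whole multiples of 1 step for genes of any length (100% of values in the 9 HBL1 libraries), and they are not comparable between genes. In the 6 SIRT3 shRNA libraries they sum to between 40.3% and 44.9% of a total that the sources used here do not name. Values were analysed as log2(CPM + 0.1) for genes with at least 1 CPM in at least 3 of the libraries fitted, with limma 3.58.1 in R 4.3.3 (two-sided moderated test, variance trend, Benjamini-Hochberg adjustment over all genes tested), and called at a fold change above 1.5 and an adjusted p under 0.05. The recovered reads were tested with edgeR 4.0.16 (quasi-likelihood) and DESeq2 1.42.0 as alternatives, and differences between lines with interaction terms.

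The members of the comparison and the gene lists were chosen with earlier results of these data known. The genes named are those the study names (SIRT3, ATF4, PSAT1, DDIT3 and HIF1A), the 12 largest rises and 12 largest falls as defined in the text, and up to 4 called members of each list with the smallest adjusted p; others are said to be chosen after their values were seen. Some genes that this rule names are not reported here, but they stay in all counts. Same-numbered libraries deviated together from their group means (Pearson r across genes between 0.233 and 0.518 in 9 pairs). The 18 other pairs had r between −0.504 and 0.365, with a mean of −0.17. Among these, pairs of a replicate 1 with a replicate 2 had r between 0.261 and 0.365, and all pairs with a replicate 3 lay below 0. The numbers, which come from the labels, thus set replicate 3 apart more clearly than they tell replicate 1 from replicate 2. A replicate block was fitted as an alternative. Coordinates of genes were taken from GENCODE (hg19) and promoters from RefSeq on GRCh38.p14, with a match for 8730 of the 11482 genes tested. Tables and figures were made with Python 3.11.15, pandas 2.3.3, numpy 2.4.6 and matplotlib 3.10.9, and the code of the tests was also checked on simulated data, from which no value is given. Count tests were not run on the OCI-Ly1 libraries, and shRNA sequences are not given here.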

Additional observations from a re-analysis of the deposited data

Results flagged for a closer look

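The difference between the SIRT3 shRNAs was tested between cell lines, and 2445 genes differed between HBL1 and Karpas422 and 1737 between HBL1 and OCI-Ly1 (limma interaction terms). Values here are log2 differences in HBL1 minus those in the other line for named genes that passed this test. The 12 rises and 12 falls were chosen for their size in HBL1, so their values are a description and lend no support to a difference between lines. For SIRT3 the value was −1.14 against OCI-Ly1, and against Karpas422 it was 0.67 for ATF4, 1.40 for PSAT1 and 1.05 for DDIT3, none of which was called between the shRNAs in HBL1 itself.

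Among the 12 rises, the values against Karpas422 and OCI-Ly1 were 4.05 and 4.81 for TIMP1, 6.0 and 4.44 for CCL4, and 7.29 and 4.09 for CCL3. They were 3.49 and 4.03 for COL1A2, 2.42 and 3.74 for MDK, and 4.79 and 2.13 for ARHGEF11. The interferon-stimulated genes gave 2.18 and 4.15 (RSAD2), 2.07 and 3.37 (IFIT2), and 2.98 and 3.61 (IFITM1). SNORD3A gave 2.99 and 3.54, and TMEM64 gave 0.88 and 1.86.

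Among the 12 falls, the values were −4.63 and −4.27 for FBXW12, −4.93 and −3.14 for WNK2, and −3.95 and −3.64 for CDHR1. They were −3.70 and −3.99 for SEMA5B, −2.51 and −3.62 for RASGRP2, −3.11 and −2.25 for SERPINA9, and −4.20 and −4.38 for CXCR4. LINC01991 gave −2.38 and −2.62 and RIMS3 gave −3.33 and −3.31. For NLRP7 and NYNRIN only the values against Karpas422 passed, at −3.64 and −3.21.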

How the results depend on the processing

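With each library left out in turn, the genes called between the SIRT3 shRNAs ranged from 203 to 1614 higher and from 228 to 1173 lower, and the log2 difference of SIRT3 from 0.44 to 0.65. Against shCTRL the ranges were 750 to 1149 higher and 1517 to 2541 lower with shSIRT3-1, and 609 to 843 higher and 1310 to 1728 lower with shSIRT3-2. Between lines they were 604 to 1650 higher and 857 to 1737 lower for Karpas422, and 570 to 1715 and 357 to 972 for OCI-Ly1.

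Quantile normalization gave 1740 genes higher with shSIRT3-1 and 1367 with shSIRT3-2 against shCTRL, DESeq2 gave 1628 with shSIRT3-1, and SIRT3 passed between the shRNAs under quantile normalization (0.66, limma adjusted p = 0.0227). Between lines quantile normalization gave 893 higher and 917 lower for OCI-Ly1, and edgeR 591 higher and 816 lower for Karpas422. The replicate block gave 1674 higher and 1210 lower for OCI-Ly1, changed the list counts named in the text, and changed the call of 0 of 114 named genes. DDIT3 ranged from −0.31 to 0.18 with single libraries left out, and turned from −0.10 to 0.18 without shSIRT3-1 replicate 3, 0.02 without shSIRT3-2 replicate 2, 0.14 in edgeR without shSIRT3-1 replicate 3 and 0.18 in a fit of 9 libraries without it. These last 2 settings were chosen after seeing the data. The causes were not tested. The direct comparison called 1235 higher and 1419 lower genes in edgeR, 1603 and 1780 in DESeq2, 1254 and 1278 under quantile normalization and 1679 and 1576 with the block. Of the 114 named genes, 41 kept their side of the thresholds and 67 lost their call without shSIRT3-2 replicate 1. The remaining named genes no longer passed the filter in that setting and were not tested. The edgeR and DESeq2 tests between HBL1 and OCI-Ly1 were not run.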

Other observations

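Calls between the shRNAs in HBL1 are given here for several other lists (limma, higher and lower with shSIRT3-2), against 12.1% of all genes called higher and 10.5% lower. Of 22 immediate early genes, which respond within minutes to stimulation, 3 were called higher and 0 lower (median 0.56, with 7 higher and 0 lower at an unadjusted p under 0.05), 8 higher with the replicate block and 10 of 20 without shSIRT3-1 replicate 3. NR4A3, one of them, was measured at 9.30, 9.70 and 16.6 CPM with shCTRL, 6.48, 4.86 and 1.86 CPM with shSIRT3-1 and 12.8, 11.4 and 12.8 CPM with shSIRT3-2. In Karpas422 12 of 24 such genes were called lower (against 4.78% of all genes), and the difference between shRNAs was larger in HBL1 for 13 (against 8.33%). Of 24 genes of cholesterol synthesis, 3 were called lower (IDI1, TM7SF2 and LSS), and 6 lower and 1 higher without shSIRT3-1 replicate 3, while against shCTRL 10 were higher with shSIRT3-1 and 11 higher and 1 lower with shSIRT3-2. LSS, which makes lanosterol, was measured at 223, 209 and 201 CPM with shCTRL, 558, 477 and 316 CPM with shSIRT3-1 and 243, 248 and 233 CPM with shSIRT3-2.

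The further lists also stand against 12.1% of all genes called higher and 10.5% lower. Of 23 p53 targets and cell cycle inhibitors, 1 was called higher and 5 lower. The gene called higher was MDM2, which encodes the ligase of p53, at 31.9, 31.4 and 23.2 CPM with shSIRT3-1 and 58.3, 59.5 and 57.1 CPM with shSIRT3-2, and among those called lower was BTG2, which slows division, at 401, 361 and 829, then 147, 136 and 211 CPM. Of 29 genes of the unfolded protein response of the endoplasmic reticulum, 5 were called higher, EDEM1 and DNAJC3 among them, and 4 lower, SYVN1 and CRELD2 among them. Of 13 genes of the small RNA machinery, which makes microRNAs and acts through them, 3 were called higher, DGCR8 by 0.70, and 3 lower, DICER1 by 0.82, but without shSIRT3-1 replicate 3 there were 1 and 1 of 12. Counts elsewhere were 1 higher and 1 lower of 16 genes of MHC class I presentation, 2 and 3 of 26 B-cell transcription factors, 0 and 2 of 16 BCL2 family genes, 2 and 1 of 10 costimulatory ligands, 0 and 1 of 11 markers of the activated B-cell-like type, and 1 and 2 of 6 markers of the germinal centre B-cell-like type. Of 37 autophagy genes 1 was called higher and 1 lower in limma, with 13 lower and 3 higher at an unadjusted p under 0.05, and the number called lower was 3 in edgeR, 8 in DESeq2, 5 with the replicate block and 4 under quantile normalization. Without shSIRT3-1 replicate 3, 2 MHC class I genes were called higher and 3 lower, 3 and 6 B-cell transcription factors, and 0 and 3 BCL2 family genes. Without shSIRT3-2 replicate 1, 0 to 2 genes were called in each direction in the pathway lists of these paragraphs. In 11 genes of the MYC network and 12 of fatty acid synthesis 0 were called in limma and edgeR, with 5 and 2 at an unadjusted p under 0.05, and DESeq2 called 4 lower and 1 higher.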
